A study of Homo sapiens with 18 samples.

Results

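The genes described here are 10 factors that act on RNA polymerase II (RNAPII) after it has started a transcript: SUPT4H1, SUPT5H, SUPT6H, NELFA, NELFB, NELFCD, NELFE, ELL, ELL2 and TCEA1. They were chosen by name for what their products do, and each was taken from the row that carries its Entrez gene ID among 23604 rows listed in at least 1 RNA-Seq library. The cells were MCF10A-ErSrc, a single immortalized human breast epithelial line that carries a v-Src kinase fused to an oestrogen receptor domain, so that tamoxifen switches the kinase on. Cells without tamoxifen are called NT and those it had transformed TAM, and cultures of either kind spent 4 h in DMSO or in triptolide (TPL), which targets XPB, a subunit of the initiation factor TFIIH. Of 18 samples, 8 were poly-A RNA-Seq libraries with 2 biological replicates in each of the 4 groups, 8 were RNAPII chromatin immunoprecipitations and 2 were inputs.

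After initiation, RNAPII commonly halts a short way into the gene. DSIF, made of SUPT4H1 and SUPT5H, and the NELF complex, made of NELFA, NELFB, the NELFC or NELFD product of NELFCD, and NELFE, hold it there. The kinase P-TEFb then phosphorylates DSIF, NELF and the polymerase, NELF leaves, and DSIF, the histone chaperone SUPT6H, the ELL proteins and TFIIS, which TCEA1 encodes, help the polymerase onward.

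The libraries held between 7461309 and 8349448 expected counts, and all 10 factors passed the filter on low counts that left 16948 genes for testing. A single factor had between 129 and 1974.54 expected counts in a library. Each of the 10 epithelial markers examined reached 1 FPKM in at least 1 library. Their summed levels were 13489.44 to 15171.74 FPKM in NT libraries and 9581.55 to 11692.56 FPKM with TPL. In TAM libraries they were 3613.71 to 3807.05 FPKM, and 1997.47 to 2143.41 FPKM with TPL. KRT5 and KRT17 made up most of each sum. TP63 was at 13.16 to 24.19 FPKM without TPL and 0.28 to 0.89 FPKM with it, whereas KRT8 and EPCAM lay higher with TPL in both states. Of 5 immune markers, 3 reached 1 FPKM in a library, mostly LYZ and CD14, and their summed level was 25.38 to 43.09 FPKM without TPL and 47.33 to 64.08 FPKM with it. Fibroblast markers summed to at most 13.04 FPKM and endothelial markers to at most 2.78 FPKM. Their part in the results was not tested.

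In NT cells without TPL, SUPT5H was the most abundant of the 10 mRNAs per length at 61.4 ± 3.24 FPKM (SD, n = 2) and ELL the least at 4.93 ± 0.537 FPKM (SD, n = 2). Between them, NELFE stood at 42.2 ± 6.31, SUPT4H1 at 36.7 ± 2.46, NELFCD at 28.6 ± 2.33, SUPT6H at 23.5 ± 1.05 and NELFB at 20.5 ± 2.28 FPKM (SD, n = 2). The lower part of the order held NELFA at 17.2 ± 0.368, TCEA1 at 16.9 ± 1.07 and ELL2 at 10.035 ± 1.59 FPKM (SD, n = 2). Among neighbours in that order, the libraries of NELFE and SUPT4H1 overlapped, as did those of NELFA and TCEA1, and the other neighbours did not. ELL was the lowest of the 10 in each of the 4 groups. SUPT5H stood first in 3 of them, and in NT + TPL cells NELFE did, at 50.3 ± 2.54 FPKM (SD, n = 2). In TAM cells the libraries of SUPT5H overlapped those of SUPT4H1. The order uses gene ID rows, and SUPT5H has 3 rows in all. Summed, these gave 50.72 and 41.32 FPKM in NT + TPL libraries, which overlapped NELFE at 52.12 and 48.53 FPKM.

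**Figure D1:**
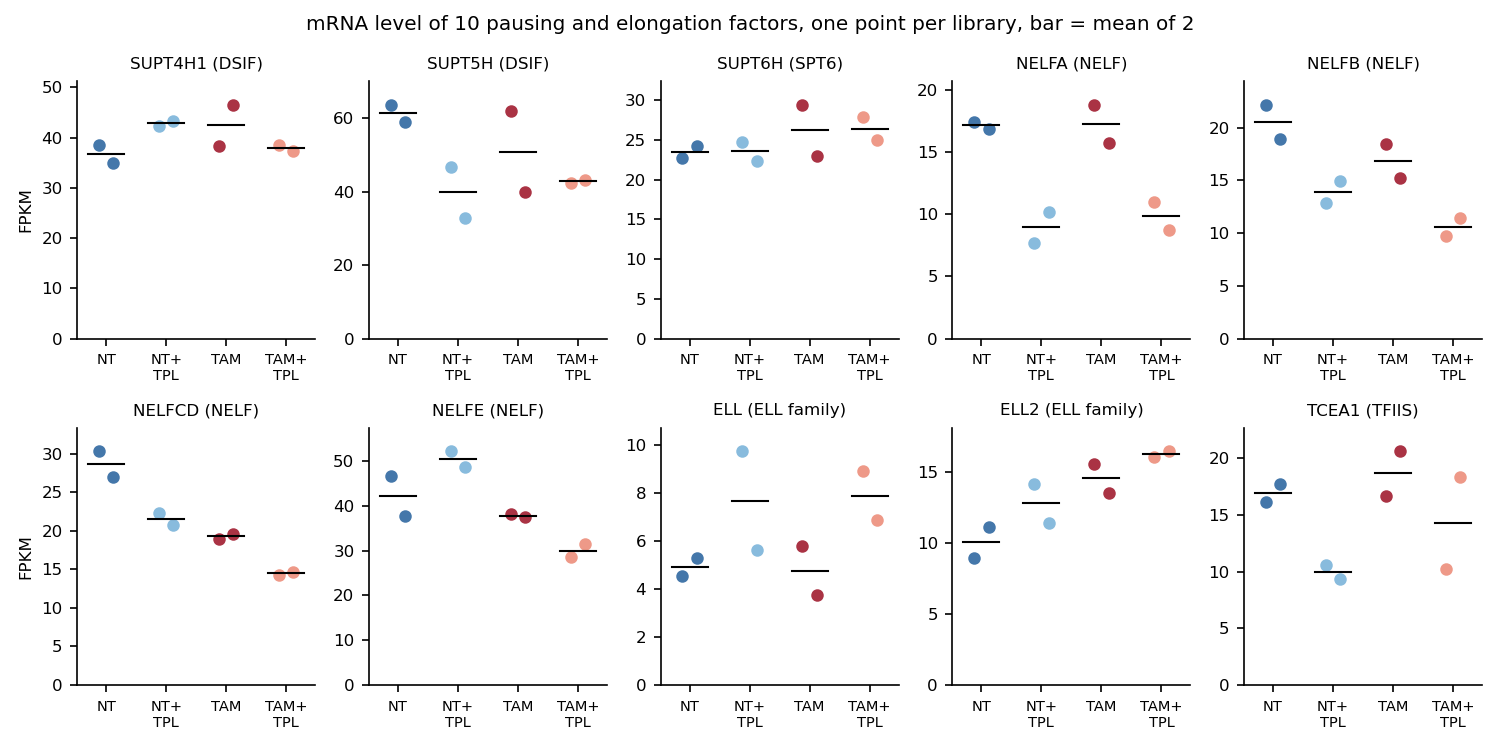
mRNA level in FPKM on linear axes from 0, in a panel for each of 10 factors, with a point for each library and a bar at the mean of 2. NELFA, NELFB and NELFCD lie lower with TPL in NT and in TAM cells without overlap, and NELFE lies higher with TPL in NT and lower in TAM cells.

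The mRNAs of 3 NELF subunits fell with TPL in both states, while that of the fourth subunit did not pass in either in the fit of 4 groups. NELFA fell by 0.94 on the log2 scale (SE 0.22) in NT cells and by 0.86 (SE 0.22) in TAM cells, NELFB fell by 0.57 (SE 0.18) and by 0.72 (SE 0.19), and NELFCD fell by 0.42 (SE 0.13) and by 0.46 (SE 0.13). These were the 3 factors of 10 at an edgeR adjusted p no higher than 0.05 in either state, all 3 lower, against a background of 19.8% of the genes tested called lower in NT cells and 18.6% in TAM cells. None of the 10 was called higher, where the background was 17.2% in NT and 14.3% in TAM cells. These backgrounds are for a single state, and the share of all genes called lower in both was not computed. The study's methods ask for an adjusted p of 0.001 or less and a change of 1.2 or more on the log2 scale. Those cut-offs were applied here to the edgeR values, not to the study's own test. At them 0 of the 10 passed, against 3.93% of the genes tested in NT and 2.88% in TAM cells. No factor changed by 1.2 or more in size, so the p-values did not decide this count. At an unadjusted p under 0.05 there were 5 of the 10 in NT and 4 in TAM cells, against 47.8 and 45.1% of the genes tested. The median log2 fold change of the 10 was -0.21 in NT and -0.34 in TAM cells, and that of all genes tested was 0.09 and 0.05. Fewer cells and less RNA per cell cannot be told apart in these bulk samples, and the changes are relative to all mRNA of a library.

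NELFA, which contacts RNAPII in the paused complex, measured 17.43 and 16.91 FPKM in the NT libraries and 7.69 and 10.23 FPKM in the NT + TPL libraries. In TAM cells it measured 18.83 and 15.79 FPKM, and 11.04 and 8.71 FPKM with TPL. All 4 TPL libraries lay below all 4 DMSO libraries, and the edgeR adjusted p was 0.0159 in NT and 0.0234 in TAM cells. Of the 10 factors, NELFA had the largest mean size of change with TPL over the 2 states, 0.898 on the log2 scale.

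NELFB, a scaffold subunit of NELF, measured 22.15 and 18.92 FPKM in NT and 12.81 and 14.93 FPKM in NT + TPL libraries. It measured 18.42 and 15.19 FPKM in TAM libraries and 9.75 and 11.4 FPKM with TPL. The groups did not overlap within a state, with an edgeR adjusted p of 0.0476 in NT and 0.0256 in TAM cells.

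NELFCD encodes the subunit that exists in a longer and a shorter form. Its level was 30.29 and 27.0 FPKM in NT libraries and 22.32 and 20.75 FPKM with TPL. In TAM libraries it was 18.9 and 19.62 FPKM, and with TPL 14.28 and 14.68 FPKM. Here each group lay below the one before it with no overlap. The edgeR adjusted p for TPL was 0.0398 in NT and 0.0338 in TAM cells.

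These calls lay close to the threshold. With NT replicate 1 or NT replicate 2 left out, 0 of the 10 passed for TPL in NT cells. Without NT + TPL replicate 2 only NELFA passed, and without NT + TPL replicate 1 it was NELFA and SUPT5H. In TAM cells 0 of the 10 passed without TAM replicate 1, without TAM replicate 2 or without TAM + TPL replicate 1, and without TAM + TPL replicate 2 only TCEA1 did. Over all 8 libraries left out in turn, the log2 fold change of NELFA spanned -1.19 to -0.72 for NT and -1.04 to -0.68 for TAM cells, that of NELFB from -0.71 to -0.43 and from -0.85 to -0.58, and that of NELFCD from -0.51 to -0.34 and from -0.50 to -0.44. The 3 stayed below 0 in each scaling tried. Upper quartile scaling, which set the median of all genes at 0.31 in NT and 0.29 in TAM cells, left 2 factors called in NT cells, NELFA lower and ELL2 higher, and 0 in TAM cells.

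**Figure D2:**
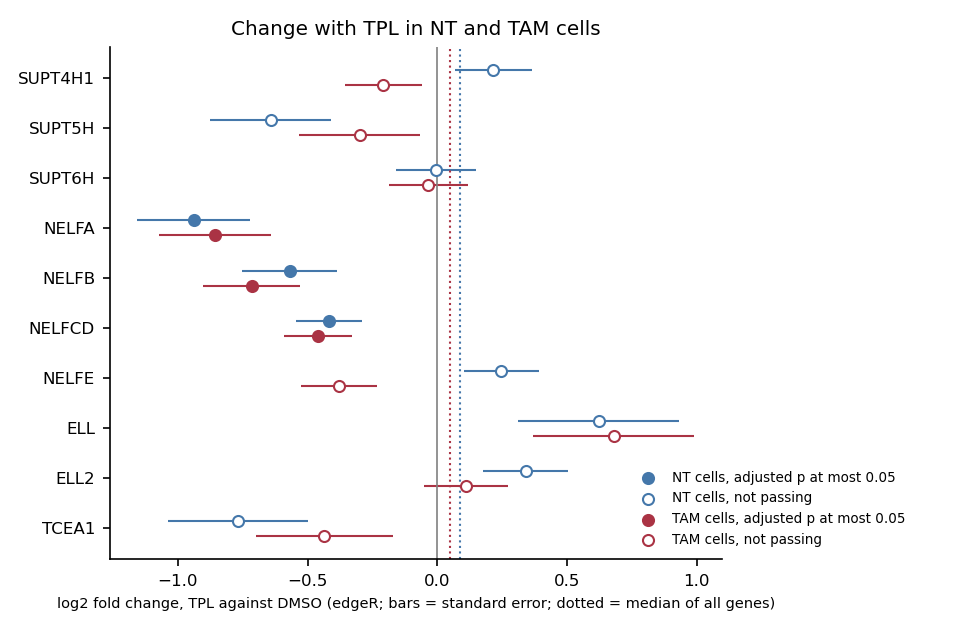
log2 fold change with TPL against DMSO (edgeR) of each factor in NT (blue) and TAM cells (red), with standard errors as bars, filled points for an adjusted p of at most 0.05 and dotted lines at the medians of all genes, 0.09 and 0.05. NELFA, NELFB and NELFCD are filled and below 0 in both states, and the 2 points of NELFE lie on opposite sides of 0.

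NELFE is the subunit that binds RNA. Its level was 46.65 and 37.72 FPKM in NT and 52.12 and 48.53 FPKM in NT + TPL libraries. In TAM cells it was 38.14 and 37.38 FPKM, and 28.64 and 31.37 FPKM with TPL. Both TPL libraries lay above the DMSO libraries in NT cells and below them in TAM cells, but neither difference passed the test in the fit of 4 groups. In the fit over the 2 groups compared, NELFE passed as lower in TAM cells, at -0.37 (edgeR adjusted p = 0.0493). The log2 fold change was 0.25 (SE 0.14, edgeR adjusted p = 0.215) in NT cells and -0.38 (SE 0.15, edgeR adjusted p = 0.0874) in TAM cells. Under GAPDH scaling the NT value was -0.10. That scaling put the median of all genes at -0.26 in NT cells, and NELFE lay 0.16 above it. The difference between the states was -0.63 (SE 0.21), with an unadjusted p of 0.0189 and an edgeR adjusted p of 0.365.

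Within a library, the ratio of NELFE to NELFA mRNA per length was 2.68 and 2.23 in NT and 6.78 and 4.74 in NT + TPL cells. In TAM cells it was 2.03 and 2.37, and 2.59 and 3.60 with TPL. The libraries with TPL lay above those without it in each state. NELFE to NELFB gave 2.11 and 1.99 in NT libraries and 4.07 and 3.25 with TPL, then 2.07 and 2.46 in TAM libraries and 2.94 and 2.75 with TPL. For NELFE to NELFCD the ratios were 1.54 and 1.397 in NT and 2.34 and 2.34 in NT + TPL cells, which did not overlap, and 2.02 and 1.91 in TAM cells against 2.01 and 2.14 with TPL, which did. An exact permutation test of 2 against 2 libraries cannot reach a threshold of 0.05, so no p is given for the ratios.

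**Figure D3:**
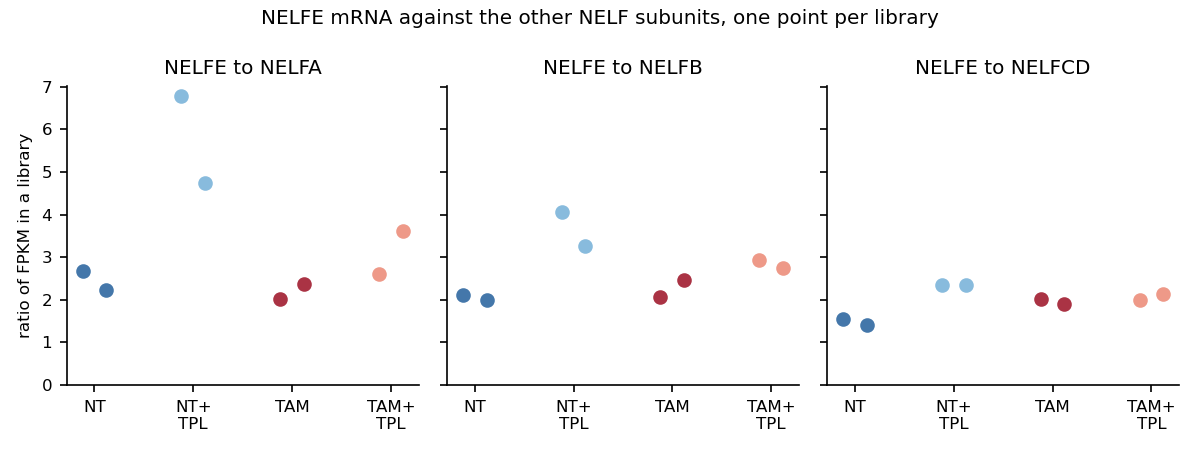
Ratio of NELFE to NELFA, NELFB and NELFCD in FPKM within a library, on linear axes from 0, with a point for each of 2 libraries a group. The NT + TPL libraries reach 6.78 and 4.74 against NELFA and lie above the NT libraries in all 3 panels.

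The promoters of the NELF genes are shown because the 4 products form a single complex. They come from a table of RefSeq promoters on GRCh38.p14 in which 8 of the 10 factors were matched (ELL2 and TCEA1 were not), and run 5′ to 3′ on the gene strand from 250 bases before the start to 50 after it. Capitals mark the GC box, GGGCGG on either strand, whose matches overlap in one place, in NELFCD. The windows are chr4:2008925-2009224 (minus) for NELFA, chr9:137255077-137255376 (plus) for NELFB, chr20:58981006-58981305 (plus) for NELFCD and chr6:31958922-31959221 (minus) for NELFE.
NELFA: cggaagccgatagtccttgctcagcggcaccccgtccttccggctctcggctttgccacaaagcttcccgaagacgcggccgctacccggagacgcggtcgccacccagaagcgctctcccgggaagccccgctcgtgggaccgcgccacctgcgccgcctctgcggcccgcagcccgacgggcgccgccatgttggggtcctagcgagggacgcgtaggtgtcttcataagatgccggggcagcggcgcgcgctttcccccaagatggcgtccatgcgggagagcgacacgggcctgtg
NELFB: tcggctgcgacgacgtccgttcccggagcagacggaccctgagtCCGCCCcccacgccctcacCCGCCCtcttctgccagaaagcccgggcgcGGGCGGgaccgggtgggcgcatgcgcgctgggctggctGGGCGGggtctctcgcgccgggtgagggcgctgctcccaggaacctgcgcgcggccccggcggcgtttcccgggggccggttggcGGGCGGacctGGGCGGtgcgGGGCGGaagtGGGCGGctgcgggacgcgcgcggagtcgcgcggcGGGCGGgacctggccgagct
NELFCD: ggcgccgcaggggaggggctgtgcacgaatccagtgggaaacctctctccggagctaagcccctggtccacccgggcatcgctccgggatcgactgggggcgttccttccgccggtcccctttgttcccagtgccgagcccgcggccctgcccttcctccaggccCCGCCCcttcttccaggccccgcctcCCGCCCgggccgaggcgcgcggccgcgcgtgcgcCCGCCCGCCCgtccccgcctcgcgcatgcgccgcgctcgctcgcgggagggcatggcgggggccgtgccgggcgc
NELFE: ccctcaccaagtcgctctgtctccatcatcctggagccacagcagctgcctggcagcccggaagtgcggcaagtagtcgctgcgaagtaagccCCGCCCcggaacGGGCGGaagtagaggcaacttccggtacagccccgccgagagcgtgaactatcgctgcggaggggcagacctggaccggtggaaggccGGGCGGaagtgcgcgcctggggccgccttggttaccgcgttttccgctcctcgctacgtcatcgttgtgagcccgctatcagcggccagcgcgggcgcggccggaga
The GC box was found 9 times in the NELFB window, 4 times in that of NELFCD, 3 times in that of NELFE and 0 times in that of NELFA. In NELFB, 4 of them begin at -34, -24, -14 and -4 from the start, 10 bases apart. Among the 8 factors, 7 had a match, and 58.5% of 15842 promoters of protein-coding genes did. The TATA box TATAAA, the CCAAT box CCAAT and the E-box CACGTG were found in 0 of the 8 on either strand, and in 9.63, 36.4 and 8.88% of all promoters. The share of G and C was 79.3% in NELFB, 78.0% in NELFCD, 70.7% in NELFA and 67.7% in NELFE, against a median of 62.7%. A match describes the letters and shows no binding.

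Taken from their gene ID rows, the DSIF subunits did not pass the test for TPL in either state in the fit of 4 groups. SUPT4H1, the small subunit, measured 38.47 and 34.99 FPKM in NT libraries and 42.32 and 43.34 FPKM with TPL, which did not overlap. In TAM libraries it measured 38.31 and 46.52 FPKM, and with TPL 38.62 and 37.33 FPKM, which did. Its log2 fold change was 0.22 (SE 0.15) in NT cells, and -0.14 under GAPDH scaling, where the median of all genes was -0.26. In TAM cells it was -0.21 (SE 0.15), and 0.03 under upper quartile scaling, where that median was 0.29. SUPT5H, the large subunit that P-TEFb phosphorylates, measured 63.69 and 59.11 FPKM in NT and 46.84 and 32.8 FPKM in NT + TPL libraries, without overlap. It measured 62.03 and 39.88 FPKM in TAM libraries and 42.42 and 43.23 FPKM with TPL, which overlapped. The log2 fold change was -0.64 (SE 0.23, edgeR adjusted p = 0.0693) in NT and -0.30 (SE 0.23, edgeR adjusted p = 0.352) in TAM cells, and without TAM replicate 1 the latter was 0.04.

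For SUPT5H the files also list 2 RefSeq transcripts as rows of their own, which took between 0 and 32.6% of the gene's expected counts. With the 3 rows summed, the log2 fold change with TPL was -0.51 (SE 0.16, edgeR adjusted p = 0.0454) in NT and -0.44 (SE 0.16, edgeR adjusted p = 0.0726) in TAM cells. The summed level was 69.74 and 59.78 FPKM in TAM and 52.07 and 46.13 FPKM in TAM + TPL libraries. These did not overlap, unlike those of the gene ID row. In NT libraries it was 69.92 and 59.11 FPKM, and with TPL 50.72 and 41.32 FPKM, also without overlap. How RSEM divided reads between such overlapping transcripts was not tested.

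SUPT6H, a histone chaperone that travels with RNAPII, differed least with TPL. It measured 22.78 and 24.27 FPKM in NT libraries and 24.76 and 22.42 FPKM with TPL, and 29.44 and 23.02 FPKM in TAM libraries and 27.87 and 25.05 FPKM with TPL. TPL and DMSO libraries overlapped in both states, and the log2 fold changes were 0.00 (SE 0.15) in NT and -0.03 (SE 0.15) in TAM cells. A second row for this gene took up to 18.9% of its counts, and the sum gave 0.15 and 0.18, neither past the test.

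ELL and ELL2, which raise the rate of elongation and sit in the super elongation complex, lay higher with TPL in each state without passing the test in the fit of 4 groups. ELL measured 4.55 and 5.31 FPKM in NT and 9.74 and 5.61 FPKM in NT + TPL libraries, and 5.78 and 3.75 FPKM in TAM and 8.91 and 6.87 FPKM in TAM + TPL libraries. Its log2 fold change was 0.62 (SE 0.31, edgeR adjusted p = 0.155) in NT and 0.68 (SE 0.31, edgeR adjusted p = 0.134) in TAM cells, and it stayed above 0 in each scaling tried. It was 0.22 in NT cells without NT + TPL replicate 1 and 0.96 without NT + TPL replicate 2, and in TAM cells 0.39 without TAM replicate 2 and 1.01 without TAM replicate 1. ELL2 measured 8.91 and 11.16 FPKM in NT and 14.18 and 11.41 FPKM in NT + TPL libraries, and 15.57 and 13.54 FPKM in TAM and 16.06 and 16.45 FPKM in TAM + TPL libraries. Its log2 fold change was 0.34 (SE 0.16, edgeR adjusted p = 0.142) in NT and 0.11 (SE 0.16, edgeR adjusted p = 0.624) in TAM cells. With GAPDH scaling it was -0.04 and -0.01, where the medians of all genes were -0.26 and -0.07. Under upper quartile scaling ELL2 passed as higher in NT cells, at 0.56 (edgeR adjusted p = 0.027), and did not pass in TAM cells, at 0.35 (edgeR adjusted p = 0.114). ELL2 exceeded ELL in all 8 libraries, by a ratio of 1.46 to 3.61 per length.

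TCEA1 encodes TFIIS, which lets a backtracked polymerase cut its transcript and resume. It measured 16.17 and 17.68 FPKM in NT and 10.62 and 9.36 FPKM in NT + TPL libraries, without overlap. In TAM cells it measured 16.7 and 20.6 FPKM, and 10.27 and 18.35 FPKM with TPL, so that the TPL replicates lay on either side of a TAM library. The log2 fold change was -0.77 (SE 0.27, edgeR adjusted p = 0.0616) in NT and -0.43 (SE 0.27, edgeR adjusted p = 0.241) in TAM cells, and without TAM + TPL replicate 2 the latter was -0.90 (edgeR adjusted p = 0.0448), and without TAM + TPL replicate 1 it was -0.08 (edgeR adjusted p = 0.82).

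Counted by libraries alone, 5 of the 10 factors had both NT + TPL libraries below both NT libraries and 4 had them above, against 32.7 and 36.4% of the genes tested. In TAM cells the counts were 4 below and 2 above, against 34.7 and 40.0%. NELFA, NELFB, NELFCD, ELL and ELL2 were the 5 of 10 with the same separation in both states, against 53.5% of the genes tested. All of these counts use the gene ID rows. With its rows summed, SUPT5H also had its TPL libraries below its DMSO libraries in both states.

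Transformation was compared in the same fit. Between TAM and NT cells with DMSO, NELFCD was the only factor of 10 that passed, lower by a log2 fold change of -0.56 (SE 0.13, edgeR adjusted p = 0.0497), where 3.39% of the genes tested were called lower and 3.46% higher. With TPL in both, NELFCD was lower at -0.60 (SE 0.13, edgeR adjusted p = 0.0402) and NELFE at -0.77 (SE 0.15, edgeR adjusted p = 0.0259), 2 of 10, against 4.21% of the genes tested called lower and 2.83% higher. NELFB did not pass in either comparison, with -0.27 (SE 0.18) and -0.42 (SE 0.19). ELL2 was at 0.55 (SE 0.16, edgeR adjusted p = 0.108) with DMSO, where it passed with DESeq2, and 0.32 (SE 0.16, edgeR adjusted p = 0.321) with TPL, and its TAM libraries lay above its NT libraries in both. The NELFCD call with DMSO was lost with any of the 8 libraries left out, with log2 fold changes from -0.64 to -0.47. Its call with TPL was lost likewise, with -0.60 to -0.55. NELFE with TPL passed in 2 of the 8, without NT replicate 1 and without NT replicate 2, and ranged from -0.80 to -0.69. GAPDH scaling moved the median of all genes to -0.50 with DMSO and -0.25 with TPL, and against these medians NELFCD was lower by the difference of -0.52 and -0.57.

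The effect of TPL did not pass the test of a difference between TAM and NT cells for any of the 10 factors with edgeR or DESeq2, where edgeR called 0.165% and DESeq2 3.13% of the genes tested. NELFE was the only factor with an unadjusted p below 0.05, 1 of 10 against 10.6% of the genes tested. For NELFA the difference was 0.08 (SE 0.30), for NELFB -0.15 (SE 0.26) and for NELFCD -0.04 (SE 0.18).

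RNAPII at the promoters was given by a peak list for each group, with starts and ends and no height, so neither the amount of RNAPII nor a ratio of paused to elongating polymerase could be computed. The lists have no replicates, and the files' build is hg19. The main TSS, that of the Ensembl canonical transcript, lay in a listed peak for 8 of the 10 factors in NT cells and for 9 with TPL, and for 8 in TAM cells and for 8 with TPL. Over 19856 protein-coding genes the shares were 47.8, 38.3, 42.1 and 37.4%, and over the 13442 of these that were tested for RNA they were 67.2, 53.8, 59.4 and 52.8%. Of the 8 factors with a peak in NT cells, 0 had none in NT + TPL cells, against 22.9% of all genes, and of the 8 in TAM cells, 0 had none in TAM + TPL cells, against 19.1%. The names in the TAM list carry another cut-off than those of the other 3 lists, so its presence and loss of peaks are not on the same footing as theirs.

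NELFA was the exception among the occupied genes. Its main TSS lies at base 2010701 of chromosome 4, minus strand. The NT peak, chr4:2010917-2011269, began 216 bases upstream of it, and the peaks of TAM, chr4:2010995-2011237, and TAM + TPL cells, chr4:2010914-2011278, began 294 and 213 bases upstream. In NT + TPL cells the peak was chr4:2010526-2010853 and covered the main TSS, from 152 bases upstream to 175 downstream. The NT and TAM + TPL peaks covered another annotated TSS of NELFA, 261 bases upstream of the main one, and the TAM peak covered 0 of its annotated TSSs. The NELFA promoter printed above runs from 250 bases before its start to 50 after it, on GRCh38.p14. It was not converted to hg19, so its place relative to these peaks was not determined.

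NELFE, on chromosome 6 at 31919864 to 31926815, had no listed peak within 1000 bases in any of the 4 groups. It lies in a region that hg19 also holds on alternative contigs. In a stretch around it whose 178 main TSSs run from 29012952 to 33422353 on chromosome 6, chosen after its values were seen, between 2.25 and 3.93% of them lay in a listed peak, and the lists held 23 to 49 peaks on the alternative contigs. Whether RNAPII was present at NELFE could therefore not be read from the lists. Its main TSS lies 204 bases from that of SKIC2 on the opposite strand. SUPT6H likewise shares its peak with SDF2, 299 bases away on the opposite strand, so that RNAPII there cannot be assigned to either gene.

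Where NT and NT + TPL peaks both covered the main TSS, the NT + TPL peak was narrower for 7 of 8 factors, and among 7313 genes it was narrower for 62.9%. The median ratio of widths was 0.833 for the factors and 0.877 for all genes. SUPT5H went from 1225 to 680 bases, NELFB from 686 to 311 and ELL2 from 517 to 339, whereas SUPT6H went from 779 to 1089. The NELFB peak was chr9:140149468-140150153 in NT and chr9:140149614-140149924 in NT + TPL cells, and NELFCD kept a similar extent, 364 and 340 bases. The TAM list was made with another cut-off in its peak names and split peaks, so its widths were not compared with the others.

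**Figure D4:**
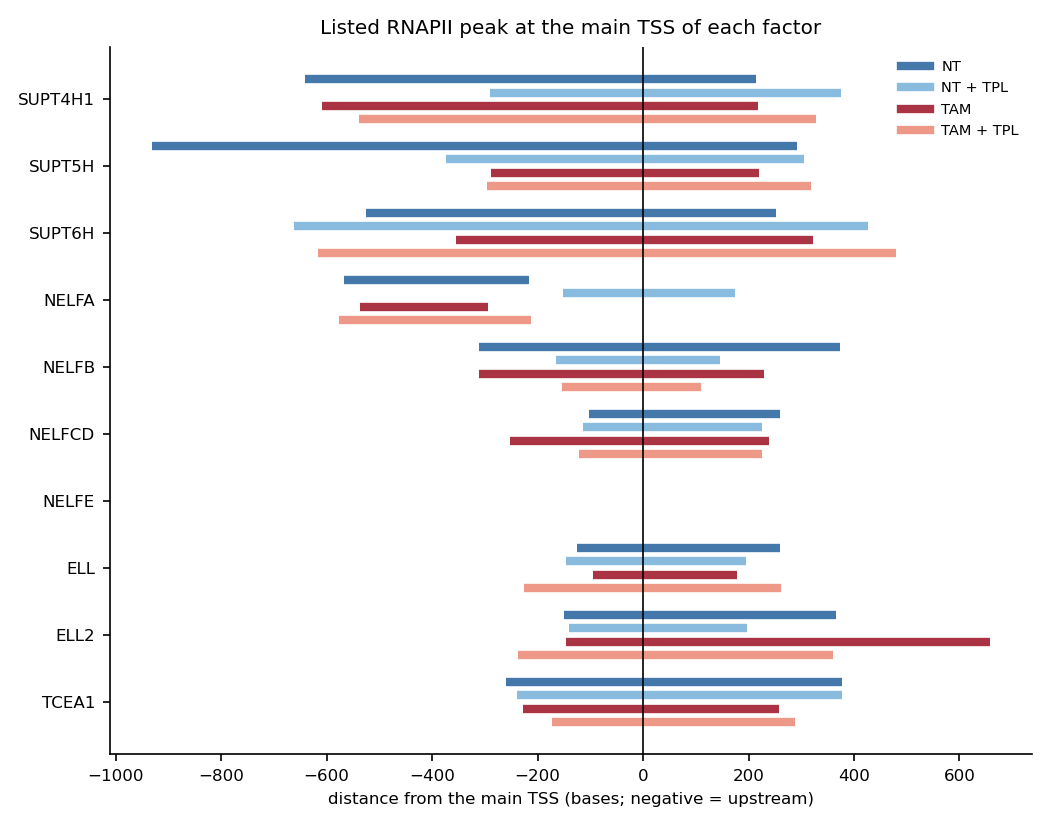
Extent of the listed RNAPII peak at each factor's main TSS in 4 groups, with the distance from the main TSS in bases on a linear axis and upstream as negative. NELFE has no peak, and the NELFA peak lies upstream of the main TSS except in NT + TPL cells.

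Of 38 other genes of elongation, 37 were tested. TPL in NT cells gave 6 higher and 11 lower, and in TAM cells 5 higher and 11 lower, to be read against the backgrounds of 17.2 and 19.8% in NT and 14.3 and 18.6% in TAM cells given above. Of these, 13 passed in both states, 5 higher and 8 lower, and none changed sign. The share of all genes that passed in both states was not computed, so this count has no background. The median log2 fold change of the 37 was -0.17 in NT and -0.18 in TAM cells.

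Of 8 genes of P-TEFb and its regulators, 3 were higher and 0 lower in NT, and 2 higher and 2 lower in TAM cells. HEXIM1, which holds P-TEFb inactive, rose from 21.44 and 20.02 to 76.83 and 78.43 FPKM in NT and from 20.04 and 19.17 to 78.99 and 78.41 FPKM in TAM cells. That was a log2 fold change of 1.90 (edgeR adjusted p = 0.000238) and 1.96 (edgeR adjusted p = 0.000305), and HEXIM1 was the only one of the 37 past the study's threshold. CCNT1, the cyclin partner of CDK9, rose by 0.90 and 1.24 on the log2 scale.

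Of 10 genes of the super and little elongation complexes, 2 were higher and 2 lower in NT, and 2 higher and 1 lower in TAM cells. EAF1 and EAF2, which bind the ELL proteins, rose, EAF1 by 0.80 and 1.01 and EAF2 by 4.09 and 3.54 on the log2 scale. EAF2 was low without TPL, between 0.24 and 0.59 FPKM, and measured 4.17 to 6.8 FPKM with it. MLLT1, a reader of acetylated histones in the super elongation complex, fell, with log2 fold changes of -1.501 and -1.14.

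In the PAF1 complex, which rides with RNAPII through the gene, 3 of 6 genes were lower in NT and 4 in TAM cells, with 1 higher in each. CDC73 fell with log2 fold changes of -2.48 and -2.24, LEO1 with -1.16 and -1.18 and RTF1 with -0.56 and -0.82, whereas CTR9 rose by 0.72 and 0.62 on that scale. Of 3 histone chaperones, SUPT16H of the FACT complex fell with log2 fold changes of -0.93 and -0.77 and IWS1, which binds SUPT6H, with -0.71 and -0.69. ELOA, the large subunit of elongin, fell with -0.76 and -0.95, and 0 of the 5 tested in its group were higher. Among 4 genes of the late elongation kinases and SETD2, 2 were lower in NT and 0 in TAM cells, and the largest difference was that of CDK12, -1.21 (edgeR adjusted p = 0.0557) in NT cells. POLR2M, which encodes Gdown1, was at -0.07 and -0.42 and did not pass.

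**Figure D5:**
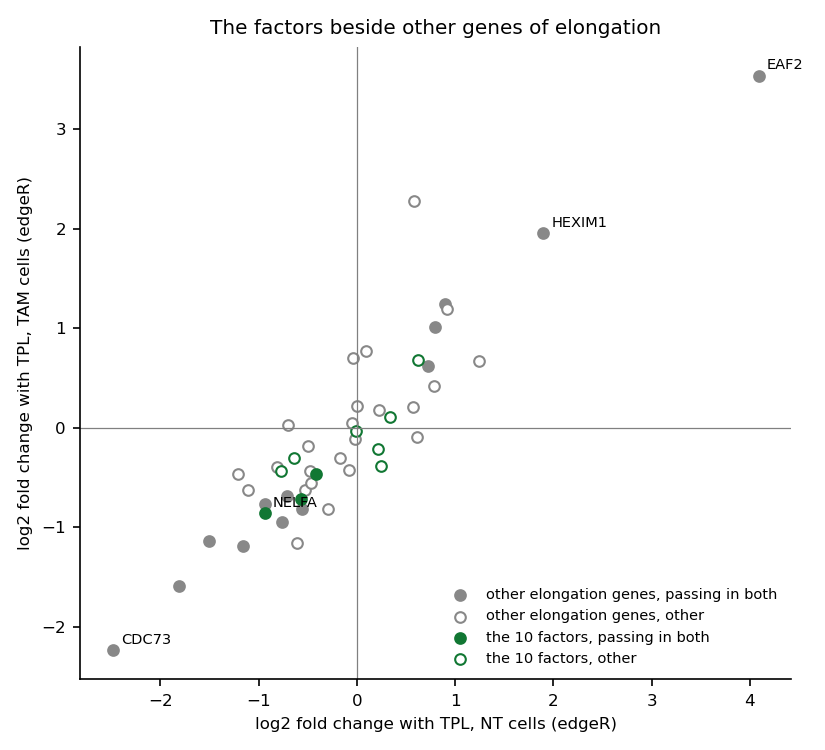
log2 fold change with TPL (edgeR) in NT cells on the x axis and in TAM cells on the y axis for 37 other genes of elongation (grey) and 10 factors (green), filled where the adjusted p was at most 0.05 in both. Of the filled points EAF2 and HEXIM1 lie highest and CDC73 lowest, and the 3 filled factors, NELFA, NELFB and NELFCD, lie below 0 on both axes.

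By Pearson's r of log2(FPKM + 1) over the 8 libraries, searched among the other factors and the list, NELFA and NELFB were each most like LEO1, with r of 0.95 and 0.871. NELFCD was most like NELFB at 0.849, NELFE like ELOB at 0.827 and TCEA1 like CDC73 at 0.851. ELL was most like EAF1 at 0.898, ELL2 like AFF4 at 0.726, SUPT6H like ELL2 at 0.705 and SUPT4H1 like ELOC at 0.474. Among 13487 genes with a mean of at least 1 FPKM, those most like NELFA were L3MBTL2 at 0.991, SF3A3 at 0.985 and ARHGAP39 at 0.985. The 8 points share their group means and library depth, so these values describe the libraries only.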

How the data were processed

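RNA-Seq of 8 libraries and RNAPII peak lists of 4 groups were used. The expected counts, estimates of reads per gene, were deposited without normalization: the authors had selected poly-A RNA, placed reads on reference genes with Bowtie2 and run RSEM. The FPKM values were deposited from the same estimates, scaled to transcript length and mapped reads. The authors called peaks over input with MACS (1.4.2 per the labels) on hg19 and described those they deposited as holding a TSS; the peak starts and ends were deposited as positions counted from 0 (a score is not listed), and positions in the text count from 1. All names in each list carry replicate number 1, and the cut-off in them is 0.1 for TAM and 0.02 for the others.

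Genes absent from a file were taken as 0. Symbols came from gene IDs for 21077 of 23604 rows and from RefSeq accessions for 2382. After rounding, expected counts went into edgeR 4.0.16 under R 4.3.3 (TMM, filterByExpr, quasi-likelihood test, Benjamini-Hochberg adjustment over 16948 genes) in a single fit of 4 groups. TMM factors lay between 0.975 and 1.03 and the biological coefficient of variation was 0.315. P-values rest on 2 cultures a group. In simulated counts, 24 of 100 genes changed by 1 on the log2 scale were recovered for TPL in NT cells (16449 genes tested) and 29 of 100 in TAM cells (16407 genes), and 61 of 100 in each at 2.

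GENCODE 44 on build 37 gave the TSSs. Python 3.11.15 was used for summaries. The factors, the list of 38 genes and the tests were chosen with earlier results of these data known. All 10 factors are named. Of the list, the genes that passed for TPL in both states are named, and the gene with the largest change in each of its 7 groups, except that some results are not reported here. Alternatives were DESeq2 1.42.0, other scalings, no filter, limma 3.58.1 on log2(FPKM + 1) and log2(FPKM + 0.1), a replicate block, fits over 2 groups, summed rows, each library left out, the study's threshold and other ways to assign peaks. The ChIP reads were not used here.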

Additional observations from a re-analysis of the deposited data

Results flagged for a closer look

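NELFE stood out because its libraries separated in opposite directions in the 2 states: both TPL libraries lay above the DMSO libraries in NT cells and below them in TAM cells. It was picked by this separation, so the values below come from the same libraries. The share of all genes with opposite separation was not computed. The TPL effect in TAM minus that in NT cells was -0.63 on the log2 scale (SE 0.21). The interaction had an unadjusted p of 0.0189 and an edgeR adjusted p of 0.365, and the adjusted p was 0.114 with DESeq2. Leaving out single libraries gave -0.79 to -0.48. GAPDH scaling gave -0.39, where the median of all genes was 0.22. The difference did not pass the test across all genes.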

How the results depend on the processing

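The calls for the 10 factors depended on the processing. The share of all genes called under each alternative, the replicate block included, is not given beside these counts. Whether a changed count is particular to these factors was not tested. For TPL in NT cells 3 passed, and the number was 5 with DESeq2 and 5 with GAPDH scaling (SUPT5H and TCEA1 added). It was 4 with summed rows (SUPT5H added), 2 with upper quartile scaling (NELFA, and ELL2 as higher) and 2 with the fit over 2 groups (NELFA and TCEA1). It was 1 with no filter on low counts, 0 at the study's threshold and 0 to 2 with a library left out. For TPL in TAM cells 3 passed, and the number was 4 with the fit over 2 groups (NELFE added), 0 with upper quartile scaling, 0 at the study's threshold and 0 to 3 with a library left out. For TAM against NT cells with DMSO 1 passed, and the number was 2 with DESeq2 (ELL2 added as higher) and 0 with DESeq2 size factors, upper quartile scaling, no filter, the fit over 2 groups, the study's threshold and each library left out (range 0 to 0). With TPL 2 passed, and the number was 1 with DESeq2 size factors, upper quartile scaling or no filter, 0 with the fit over 2 groups and at the study's threshold, and 0 to 1 with a library left out. Of the list, 17 passed in NT and 16 in TAM cells, and the numbers were 8 for the fit over 2 groups in NT cells, 1 and 1 at the study's threshold, and 12 to 18 and 7 to 16 with a library left out. The cause of these differences was not tested, beyond fewer samples in the fit.

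Correlations between groups of the deviations of replicate 1 lay between -0.296 and 0.123 over 11700 genes. With 2 libraries a group, replicate 2 deviates by the same amount the other way, so the sign depends on how replicates were numbered. An effect shared by replicates of the same number would give values above 0, and these lay on both sides of 0. Pairing under other numbers would turn the sign, so the check cannot tell whether libraries were paired. With a replicate block, 2 factors passed for TPL in NT cells (NELFA and SUPT5H), 2 in TAM cells (NELFA and NELFB), and for TAM against NT cells 0 with DMSO and 0 when both had TPL. NELFB in NT cells then had an edgeR adjusted p of 0.0779, and NELFCD had 0.064 in NT and 0.0564 in TAM cells. Of the list, 14 and 16 then passed.

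Signs turned only for values that did not pass. Under GAPDH scaling, TPL in NT cells gave -0.14 for SUPT4H1, -0.10 for NELFE and -0.039 for ELL2, and in TAM cells -0.0072 for ELL2. The median of all genes was then -0.26 in NT and -0.07 in TAM cells, so each of these values lay above it. Under upper quartile scaling SUPT4H1 in TAM cells gave 0.031, POLR2M in NT cells 0.15 and SUPT6H 0.22 in NT and 0.21 in TAM cells. Each was below the median of all genes under that scaling, 0.31 in NT and 0.29 in TAM cells. SUPT6H in NT cells also gave 0.0117 with DESeq2, 0.0116 with its size factors, 0.0028 and 0.0029 with limma, 0.011 in the fit over 2 groups and 0.15 with summed rows, and in TAM cells 0.020 and 0.021 with limma and 0.18 with summed rows. With each library left out, SUPT6H ran from -0.060 to 0.047 for TPL in NT cells and from -0.21 to 0.14 in TAM cells, SUPT5H in TAM cells from -0.59 to 0.039, NELFE for TAM against NT cells with DMSO from -0.29 to 0.016, and POLR2M in NT cells from -0.37 to 0.19.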
